A study of Mus musculus with 10 samples.

Results

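The interferon receptor chains and the interferon regulatory factors (IRFs) were examined in skin of C3H/HeJ mice that carried grafts of alopecic skin, a transfer model of alopecia areata (AA). The genes were Ifnar1, Ifnar2, Ifngr1, Ifngr2, Irf1, Irf2, Irf3, Irf5, Irf8 and Irf9, and every probe set whose only platform symbol was one of them was taken. All 10 genes were found, by 19 probe sets, among 18193 named genes and 45037 probe sets. Baricitinib, which blocks the kinases JAK1 and JAK2, was delivered systemically from the time of grafting to 5 mice, and 5 grafted mice were vehicle controls. Skin was taken at week 12, with 1 array per mouse. The recipients were young adults, free of hair loss before grafting, and implanted osmotic pumps released drug or placebo. All 10 mice therefore shared the strain, with its inactive endotoxin receptor Tlr4, and the graft, and no ungrafted skin was analysed here. Values are log2 expression made by robust multi-array average (RMA), so that a difference of 1 is a doubling.

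Type I interferons bind a receptor of the chains IFNAR1 and IFNAR2, which carry the kinases TYK2 and JAK1, and interferon gamma binds IFNGR1 and IFNGR2, which carry JAK1 and JAK2. The activated kinases phosphorylate STAT factors. One complex of STAT factors with IRF9 binds the interferon-stimulated response element (ISRE), and STAT dimers formed after interferon gamma bind the gamma-activated sequence (GAS). IRF1 and IRF8 are themselves induced by interferon gamma, IRF2 competes with IRF1 for the same sites, and IRF3 and IRF5 are activated by phosphorylation downstream of nucleic acid sensors and Toll-like receptors. In AA, T cells that make interferon gamma gather around the hair follicle.

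The promoters of these genes are shown because the factors of the pathway act on some of its own members. RefSeq windows of 300 bases (assembly GRCm38.p6, 250 bases before to 50 after the start) were present for all 10 genes, as 13 windows. The GAS letters TTCNNNGAA, which read the same on both strands, were found in 5 of the 13 windows, each of another gene, against 8.30% of 32851 windows in the whole table. The ISRE letters GAAANNGAAA, searched on both strands, were found in 1 window, that of Irf2, against 3.44% of all windows. No match overlapped another. The stretches around the matches in Irf1, Irf8, Irf2 and Ifnar2 follow, all on the plus strand, with the matching letters in capitals.
Irf1, chr11:53769908-53769948, GAS 90 bases before the start: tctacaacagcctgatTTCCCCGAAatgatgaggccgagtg
Irf8, chr8:120736171-120736229, GAS 171 and 153 bases before the start: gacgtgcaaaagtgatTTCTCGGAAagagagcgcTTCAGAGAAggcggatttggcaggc
Irf2, chr8:46739495-46739545, ISRE 241 and GAS 224 bases before the start: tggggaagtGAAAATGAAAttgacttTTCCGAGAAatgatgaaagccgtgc
Ifnar2, chr16:91372553-91372593, GAS 214 bases before the start: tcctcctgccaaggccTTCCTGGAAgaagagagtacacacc
The fifth gene was Ifnar1, whose match began 5 bases before its start. A match is only a run of letters, and no binding was measured in these samples.

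Arrays differed in ways that touched most member probe sets. Vehicle replicate 5 correlated with the other arrays at a median r of 0.705, against 0.959 to 0.981 for the other 9 arrays, and the methods of the study removed 1 vehicle array after quality control without naming it in the labels. Differences of the members are therefore given with all 10 arrays and without vehicle replicate 5. The gap between 3' and 5' control probe sets, which widens in degraded RNA, was 0.99 to 1.18 log2 on the baricitinib arrays, and 3.03, 2.0, 4.35, 1.01 and 4.06 log2 on vehicle replicates 1 to 5. Baricitinib replicate 5 was more like vehicle replicate 4 (r = 0.994) than like any baricitinib array. Among T cell markers, the CD8 chain gene Cd8a was at 4.22 to 4.93 log2 on baricitinib arrays 1 to 4 and at 10.02 log2 on array 5, against 10.17 to 11.03 log2 on vehicle arrays 1 to 4 and 4.81 log2 on vehicle array 5. Both arrays numbered 5 were thus nearer to the Cd8a level of the other group. Some other values ran with the labels. Over all probe sets vehicle replicate 5 was most like vehicle replicate 1 (r = 0.729). The basal keratin gene Krt15 was at 12.54 log2 on baricitinib replicate 5 and 10.06 log2 on vehicle replicate 5, each within its own group. Socs3 was at 9.61 and 10.51 log2 on the same arrays. Its 9.61 log2 lay above baricitinib arrays 1 to 4, at 8.31 to 9.23 log2, and just below vehicle replicate 4 at 9.75 log2. On vehicle arrays 1 to 5, Krt15 was at 10.63, 11.49, 9.41, 11.89 and 10.06 log2, the reverse order of the 3'/5' gap. Socs3 was at 10.25, 9.95, 10.93, 9.75 and 10.51 log2 on them, the order of the gap. A dimmer Socs3 probe set was at 7.37 log2 on baricitinib replicate 5 and 3.15 log2 on vehicle replicate 5. Vehicle arrays 1 to 4 were at 6.55 to 7.53 log2 by it. The part of RNA quality in these values was not tested, and the labels were kept as given. The tissue label fitted its markers, since 5 keratinocyte keratins averaged 12.25 to 12.89 log2 on the baricitinib arrays, against 11.87 to 12.70 log2 on the vehicle arrays.

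Across the 19 probe sets, 11 were lower and 8 higher in baricitinib treated skin, with a median difference of -0.14 log2. Over all 45037 probe sets the median was -0.07 log2 and 55.4% were lower. That share includes dim probe sets. Of the 22519 probe sets with a mean at or above the overall median of 6.08 log2, 7730 were lower and the median was 0.23 log2. Among the members that bright, 9 were lower and the median was -0.01 log2. The difference from that background was not tested. In limma none of the 19 passed an adjusted p of 0.05, and their adjusted p ran from 0.344 (Irf3) to 0.973 (Irf2), where 0% of all probe sets passed in either direction. At an unadjusted p under 0.05, 0 of the 19 were called, against 5.62% of all probe sets called lower and 9.21% called higher. That split over all probe sets was 2532 lower and 4148 higher, and became 3800 lower and 3177 higher after centring on array medians, which still called none of the 19 by adjusted p. Without vehicle replicate 5 the smallest adjusted p of the 19 was 0.0733 (Ifnar2) and again 0 passed, with 0% of all probe sets passing in either direction. In that comparison 5 were lower and 2 higher at an unadjusted p under 0.05, against 13.5% and 14.4% of all probe sets. The 5 lower probe sets were those of Irf1, Irf9 and all 3 of Ifnar2, and the 2 higher were both of Irf3.

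**Figure D1:**
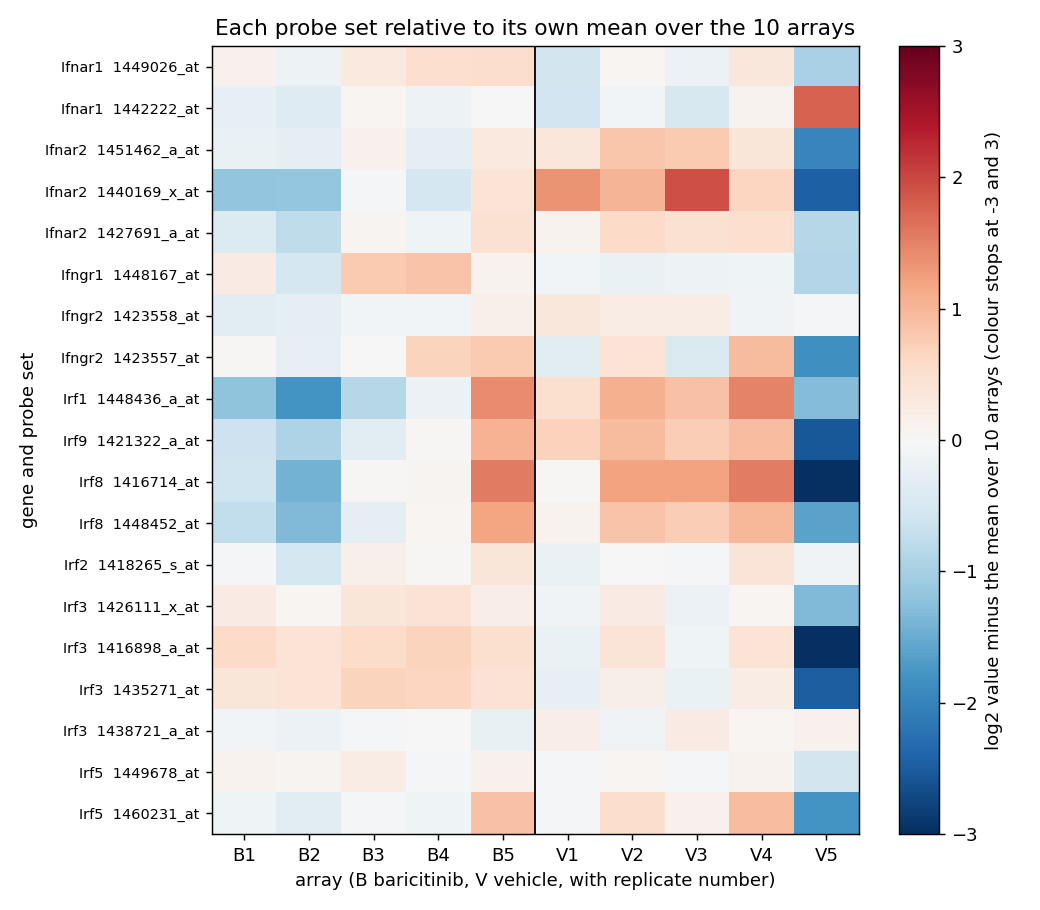
Log2 value of each of the 19 probe sets on each of the 10 arrays, minus the mean of that probe set over the 10 arrays (colour, stopping at -3 and 3). Baricitinib arrays B1 to B5 are left of the line and vehicle arrays V1 to V5 right of it. Vehicle replicate 5 was the lowest vehicle array for 15 of the 19 probe sets, and baricitinib replicate 5 the highest baricitinib array for 12.

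The spread within each group was carried by few arrays. Baricitinib replicate 5 was the highest of its group for 12 of the 19 probe sets, whereas it was the highest for 18.0% of all probe sets. Baricitinib replicate 2 was the lowest of its group for 13 of the 19, against 24.4% of all. In the vehicle group, replicate 5 was the lowest for 15 of the 19, against 41.5% of all, and replicate 4 the highest for 10, against 21.3% of all. The probe sets of the group share arrays, so these counts describe the arrays and were not tested.

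Of the factors that interferon gamma induces, Irf1, a transcriptional activator of antigen presentation genes, was at 8.70, 8.14, 9.06, 9.73 and 11.33 log2 on baricitinib arrays 1 to 5, against 10.40, 10.99, 10.80, 11.42 and 8.63 log2 on vehicle arrays 1 to 5 (1448436_a_at). Baricitinib arrays 1 to 4 were all below vehicle arrays 1 to 4, and each array numbered 5 lay within the range of the other group. Irf1 averaged 9.39 ± 1.23 log2 in baricitinib treated and 10.44 ± 1.08 log2 in vehicle control skin (SD, n = 5 each). The difference was -1.05 ± 0.66 log2 (SE, adjusted p = 0.431), which was within the spread between mice. It was -1.51 ± 0.56 log2 without vehicle replicate 5 (adjusted p = 0.131) and -1.54 log2 without baricitinib replicate 5 (adjusted p = 0.338). Skin was measured whole, so fewer cells of a type and less RNA per cell cannot be told apart here or in any other member.

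Irf9, the DNA-binding partner of the STAT factors in the ISRE complex, had a like arrangement of arrays. It was at 8.82, 8.51, 9.14, 9.48 and 10.49 log2 on baricitinib arrays 1 to 5, against 10.12, 10.40, 10.19, 10.36 and 6.91 log2 on vehicle arrays 1 to 5 (1421322_a_at). Vehicle replicates 1 to 4 were within 10.12 to 10.40 log2, and replicate 5 was far below them. The mean was 9.29 ± 0.76 log2 in baricitinib treated and 9.60 ± 1.51 log2 in vehicle control skin (SD, n = 5 each), a difference of -0.31 ± 0.68 log2 (SE, adjusted p = 0.791). Against the mean of 10.27 ± 0.13 log2 over the other 4 vehicle arrays, the difference was -0.98 ± 0.34 log2 (adjusted p = 0.118), larger and still short of the threshold.

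Irf8, a factor of macrophages and dendritic cells, was read by 2 probe sets that ordered the arrays nearly alike. The brighter was at 7.09, 6.28, 7.74, 7.78 and 9.25 log2 on baricitinib arrays 1 to 5, against 7.72, 8.91, 8.91, 9.23 and 4.07 log2 on vehicle arrays 1 to 5 (1416714_at). The groups overlapped with and without vehicle replicate 5, since vehicle replicate 1 lay below baricitinib replicates 3, 4 and 5. The difference was -0.14 ± 0.96 log2 (SE, adjusted p = 0.938) and, without vehicle replicate 5, -1.06 ± 0.54 log2 (adjusted p = 0.225). The dimmer probe set, 1448452_at, differed by -0.43 ± 0.58 log2 (adjusted p = 0.659) and by -0.88 log2 without that array (adjusted p = 0.218).

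**Figure D2:**
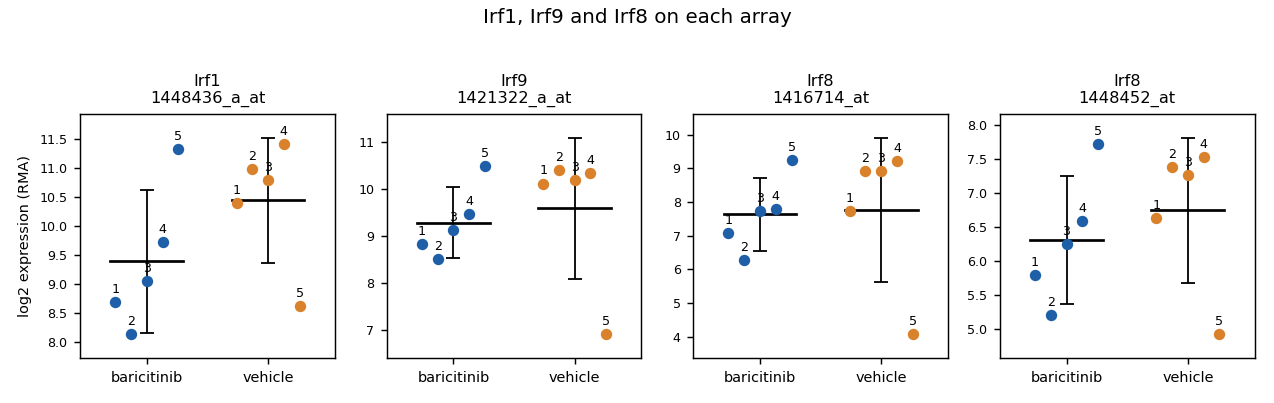
Log2 expression of Irf1, Irf9 and Irf8 on each array, with 1 point per mouse numbered by replicate, baricitinib left and vehicle right in each panel. Horizontal lines are group means and bars are SD (n = 5). For Irf1, baricitinib replicates 1 to 4 lie at 8.14 to 9.73 and vehicle replicates 1 to 4 at 10.40 to 11.42, while replicate 5 of each group lies at 11.33 and 8.63.

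Markers of T cells and of the myeloid cells that express Irf8 were read on the same arrays. The mean of 6 T cell markers was 6.64 to 7.77 log2 on baricitinib arrays 1 to 4 and 9.07 log2 on array 5, against 9.04 to 9.58 log2 on vehicle arrays 1 to 4 and 6.54 log2 on array 5, and 5 of the 6 were lower in baricitinib treated skin. The mean of 6 macrophage markers was 9.97 to 10.80 log2 on the baricitinib arrays, against 10.10 to 10.67 log2 on vehicle arrays 1 to 4 and 8.79 log2 on array 5, with 3 of the 6 lower. The mean of 6 measured dendritic cell markers was 6.15 to 7.43 log2 on the baricitinib arrays, against 6.78 to 7.23 log2 on vehicle arrays 1 to 4 and 5.96 log2 on array 5, again with 3 of the 6 lower. As for Irf1, the T cell means of baricitinib arrays 1 to 4 were all below those of vehicle arrays 1 to 4, whereas the myeloid means overlapped between groups. Other lists differed as well, over all 10 arrays. All 3 measured B cell markers were lower, with a median difference of -0.79 log2, or -0.91 log2 without vehicle replicate 5. They were dim, with means of 3.79 to 5.52 log2, against a median of 6.08 log2 over all probe sets. Ms4a1 was highest on vehicle replicate 5, at 7.27 log2. No fall in B cells is therefore read from them. All 3 endothelial markers (median 1.01 log2), both measured adipocyte markers (1.01 log2) and 3 of 4 skeletal muscle markers (0.87 log2) were higher. On vehicle arrays 1 to 4, Pecam1, Acta1, Ckm and Tnnt3 ran in the reverse order of the 3'/5' gap. Kdr, Cdh5, Adipoq, Fabp4 and Myh4 did not. The endothelial gene Pecam1 was at 5.94, 6.66, 5.69 and 7.18 log2 on those arrays, against 7.10 to 8.47 log2 on the baricitinib arrays. The part of RNA quality in these markers was not tested. No gene of these lists passed the test, and the part of the cell makeup in the values of the receptor and IRF genes was not tested.

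Of the receptor chains, Ifnar2 had negative differences at each of its probe sets. Ifnar2 encodes the high-affinity chain of the type I receptor and gives a long, a short and a soluble form by alternative splicing, and it was read by 3 probe sets. The brightest, 1451462_a_at, was at 8.13, 8.07, 8.45, 8.05 and 8.63 log2 on baricitinib arrays 1 to 5, against 8.68, 9.16, 9.12, 8.69 and 6.36 log2 on vehicle arrays 1 to 5. Its difference was -0.14 ± 0.49 log2 (SE, adjusted p = 0.874) and, without vehicle replicate 5, -0.65 ± 0.17 log2 (adjusted p = 0.0819). All 5 baricitinib arrays were then below all 4 vehicle arrays, baricitinib replicate 5 included.

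The probe set 1440169_x_at of Ifnar2, which may also match other transcripts, gave the same picture with a wider range. It was at 5.84, 5.85, 6.98, 6.48 and 7.43 log2 on baricitinib arrays 1 to 5, against 8.36, 8.02, 8.94, 7.65 and 4.55 log2 on vehicle arrays 1 to 5. The mean was 6.51 ± 0.70 log2 in baricitinib treated and 7.50 ± 1.72 log2 in vehicle control skin (SD, n = 5 each), a difference of -0.99 ± 0.75 log2 (SE, adjusted p = 0.479). Without vehicle replicate 5 the groups did not overlap and the difference was -1.73 ± 0.38 log2, a ratio of 0.302 (adjusted p = 0.0733). The third, 1427691_a_at, was at 5.58 to 6.78 log2 on the baricitinib arrays and at 5.48 to 6.90 log2 on the vehicle arrays, and differed by -0.31 ± 0.32 log2 (adjusted p = 0.570), or by -0.56 log2 without that array (adjusted p = 0.153). The 3 probe sets agreed in direction in both comparisons. Among vehicle replicates 1 to 4, the 1440169_x_at values of 8.36, 8.02, 8.94 and 7.65 log2 followed the order of the 3'/5' gap of 3.03, 2.0, 4.35 and 1.01 log2, and vehicle replicate 4, whose gap was like that of the baricitinib arrays, was at 7.65 log2, against 7.43 log2 on the highest baricitinib array. The part of RNA quality in the Ifnar2 values was not tested.

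The other type I chain did not follow Ifnar2. Ifnar1, which completes the signalling receptor, was at 8.62, 8.34, 8.80, 9.0 and 9.03 log2 on baricitinib arrays 1 to 5, against 7.95, 8.56, 8.32, 8.84 and 7.52 log2 on vehicle arrays 1 to 5 by its brighter probe set 1449026_at. The difference was 0.52 ± 0.26 log2 (SE, adjusted p = 0.367), with overlapping groups, and 0.34 ± 0.20 log2 without vehicle replicate 5 (adjusted p = 0.292). The dim probe set 1442222_at lay between 3.63 and 4.32 log2 on 9 arrays and at 5.98 log2 on vehicle replicate 5. That array alone gave its difference of -0.29 log2 (adjusted p = 0.663), which was 0.11 log2 without it. By 1449026_at vehicle replicates 1 and 3 were below replicates 2 and 4, and their 3'/5' gaps were the wider ones of those 4 arrays. Vehicle replicate 4, with a gap like that of the baricitinib arrays, was above baricitinib replicates 1, 2 and 3. The part of RNA quality in the Ifnar1 values was not tested. Neither was the difference between Ifnar1 and Ifnar2 in response.

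The interferon gamma receptor chains were read by 3 probe sets. Ifngr1, the ligand-binding chain, was at 9.20, 8.43, 9.75, 9.80 and 9.05 log2 on baricitinib arrays 1 to 5, against 8.87, 8.75, 8.79, 8.82 and 8.09 log2 on vehicle arrays 1 to 5 (1448167_at). Of the baricitinib arrays 4 were above every vehicle array and replicate 2 was below vehicle replicates 1 to 4, and the difference was 0.58 ± 0.28 log2 (SE, adjusted p = 0.358), or 0.44 log2 without vehicle replicate 5 (adjusted p = 0.286). The probe sets of Ifngr2, the chain that brings JAK2 to the receptor, differed in opposite directions. The brighter, 1423558_at, was at 7.09 to 7.57 log2 on the baricitinib arrays and at 7.32 to 7.75 log2 on the vehicle arrays, a difference of -0.25 ± 0.16 log2 (adjusted p = 0.428), or -0.30 log2 without vehicle replicate 5 (adjusted p = 0.182). The dimmer, 1423557_at, was at 6.48 to 7.52 log2 on the baricitinib arrays and at 4.88 to 7.67 log2 on the vehicle arrays, a difference of 0.50 ± 0.47 log2 (adjusted p = 0.536) that was 0.10 log2 without vehicle replicate 5. No direction is therefore given for Ifngr2.

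**Figure D3:**
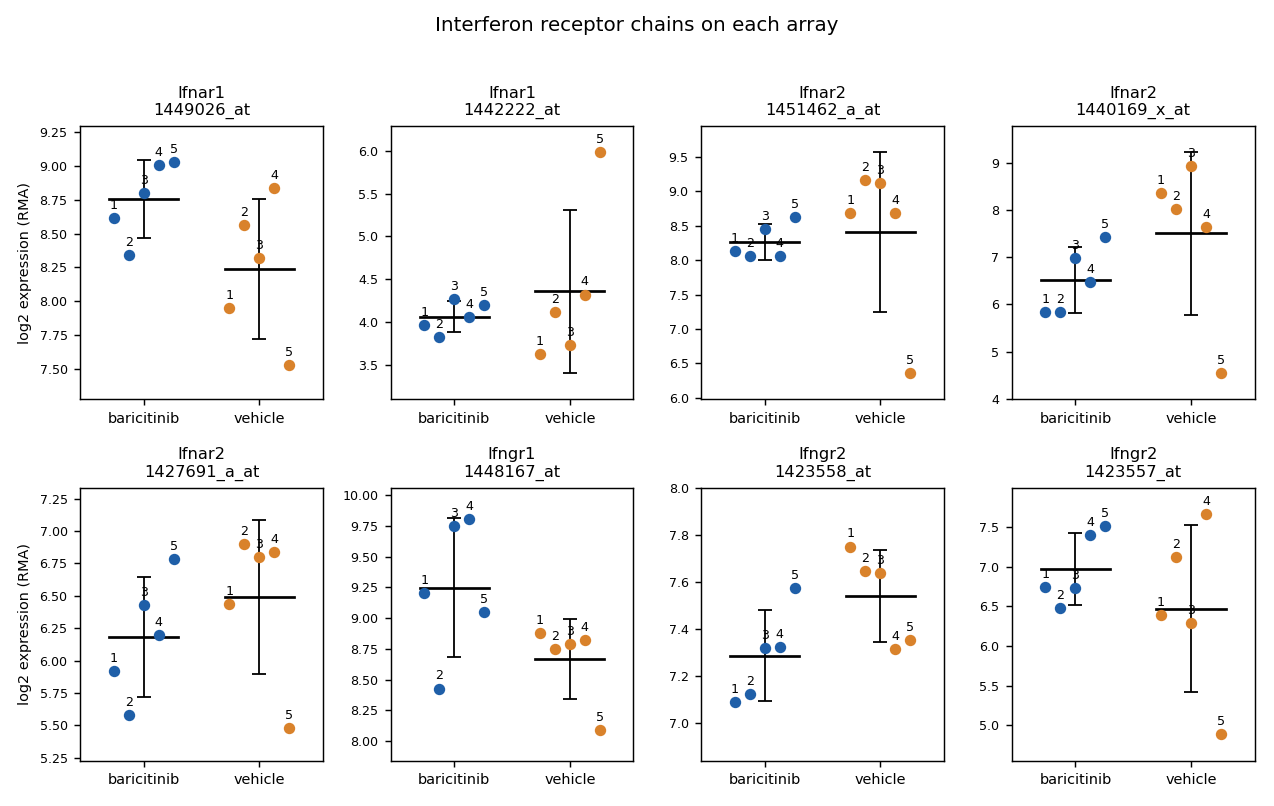
Log2 expression of the 8 probe sets of Ifnar1, Ifnar2, Ifngr1 and Ifngr2 on each array, with 1 point per mouse numbered by replicate, baricitinib left and vehicle right. Horizontal lines are group means and bars are SD (n = 5). For the brightest Ifnar2 probe set, the baricitinib arrays lie at 8.05 to 8.63 and vehicle arrays 1 to 4 at 8.68 to 9.16, with vehicle array 5 at 6.36.

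Among the sensor-driven factors, Irf3, which starts type I interferon transcription, had positive differences at 3 of its 4 probe sets. By 1435271_at it was at 8.33, 8.39, 8.63, 8.61 and 8.40 log2 on baricitinib arrays 1 to 5, against 7.71, 8.15, 7.77, 8.20 and 5.49 log2 on vehicle arrays 1 to 5. All baricitinib arrays were above all vehicle arrays. This was the only 1 of the 19 probe sets without overlap over all arrays, where 3.09% of all probe sets were higher and 2.03% lower without overlap. Its difference was 1.01 ± 0.46 log2 (SE, adjusted p = 0.344) over all arrays, of which vehicle replicate 5 made a large share, since without it the difference was 0.52 ± 0.14 log2 (adjusted p = 0.0825).

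By 1416898_a_at Irf3 was at 9.05 to 9.31 log2 on the baricitinib arrays, against 8.45 to 9.07 log2 on vehicle arrays 1 to 4 and 5.48 log2 on vehicle array 5. That difference was 1.07 ± 0.61 log2 (adjusted p = 0.404), or 0.41 log2 without vehicle replicate 5 (adjusted p = 0.130). By 1426111_x_at, which may match other transcripts, it was 0.53 log2 (adjusted p = 0.383), or 0.26 log2 without that array (adjusted p = 0.205). The dimmest, 1438721_a_at, differed the other way, by -0.22 ± 0.13 log2 (adjusted p = 0.423) and by -0.21 log2 without vehicle replicate 5, with 5.77 to 6.0 log2 on the baricitinib arrays and 5.89 to 6.26 log2 on the vehicle arrays. For 1435271_at and 1416898_a_at, vehicle replicates 1 and 3 were below replicates 2 and 4, and their 3'/5' gaps were the wider ones of those 4 arrays. Vehicle replicate 4, with a gap like that of the baricitinib arrays, was at 8.20 log2 by 1435271_at, below the lowest baricitinib array at 8.33 log2. The part of RNA quality in the Irf3 values was not tested.

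Irf2, the competitor of Irf1 at shared sites, was nearly level. It was at 10.64, 10.16, 10.85, 10.73 and 11.06 log2 on baricitinib arrays 1 to 5, against 10.50, 10.67, 10.66, 11.07 and 10.59 log2 on vehicle arrays 1 to 5 (1418265_s_at). The difference was -0.01 ± 0.20 log2 (SE, adjusted p = 0.973), or -0.04 log2 without vehicle replicate 5 (adjusted p = 0.906), and its direction turned in several alternatives. Its probe set was 1 of 3 whose vehicle replicate 5 lay within the range of the other vehicle arrays. Its promoter, shown above, held both kinds of match.

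Irf5, a factor of Toll-like receptor responses in myeloid and B cells, was read by 2 probe sets with different spreads. The brighter, 1449678_at, was at 9.17 to 9.45 log2 on the baricitinib arrays, against 9.15 to 9.32 log2 on vehicle arrays 1 to 4 and 8.66 log2 on array 5, a difference of 0.20 ± 0.16 log2 (adjusted p = 0.491) that was 0.089 log2 without vehicle replicate 5 (adjusted p = 0.549). The other, 1460231_at, was at 7.54, 7.36, 7.63, 7.54 and 8.55 log2 on baricitinib arrays 1 to 5, against 7.6, 8.20, 7.81, 8.61 and 5.88 log2 on vehicle arrays 1 to 5. Baricitinib replicate 5 stood above the rest of its group, near the level of vehicle replicate 4. The difference was 0.10 ± 0.47 log2 (adjusted p = 0.902) and changed sign to -0.33 log2 without vehicle replicate 5 (adjusted p = 0.441).

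**Figure D4:**
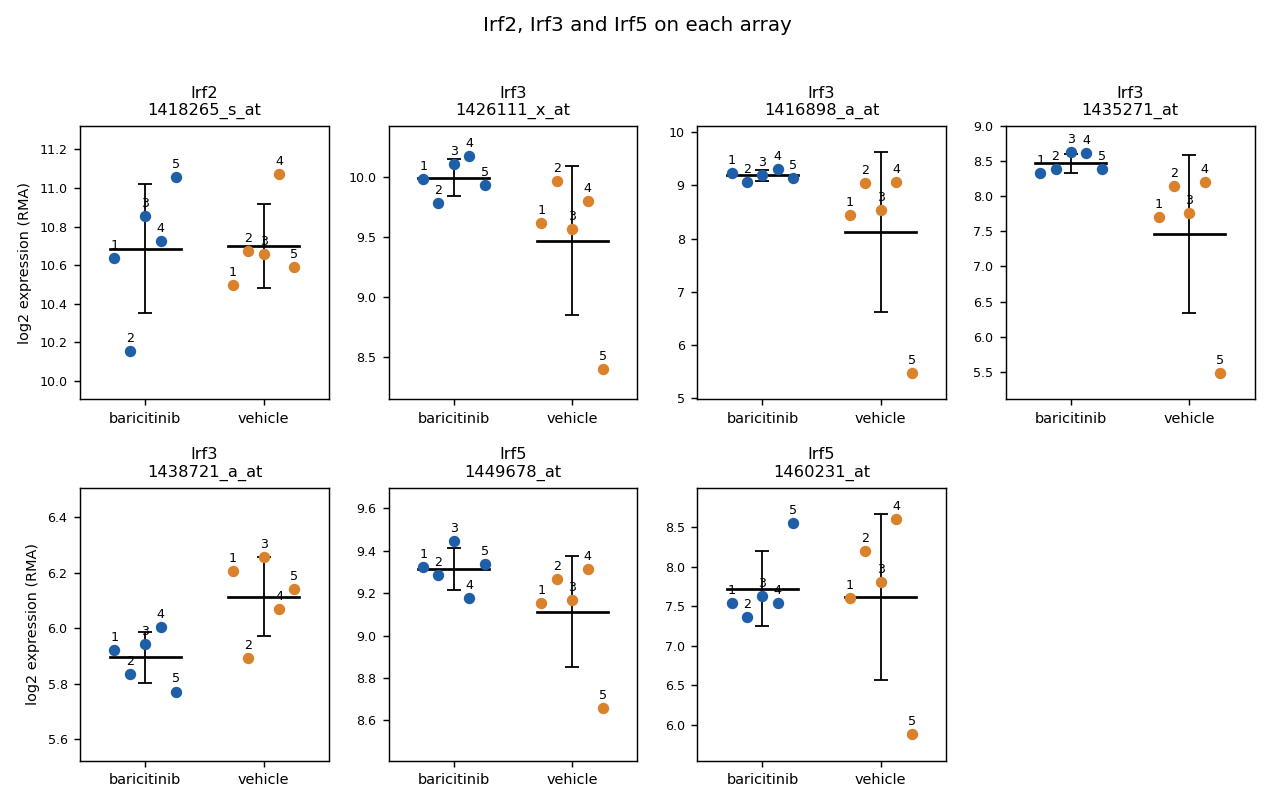
Log2 expression of the 7 probe sets of Irf2, Irf3 and Irf5 on each array, with 1 point per mouse numbered by replicate, baricitinib left and vehicle right. Horizontal lines are group means and bars are SD (n = 5). For Irf3 by 1435271_at every baricitinib array, from 8.33 to 8.63, lies above every vehicle array, from 5.49 to 8.20.

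Without vehicle replicate 5, the groups did not overlap for 3 of the 19 probe sets. These were 2 of Ifnar2, lower in baricitinib treated skin, and 1 of Irf3, higher, where 4.11% of all probe sets were lower and 4.42% higher without overlap. When arrays were instead weighted by their quality in limma, vehicle replicate 5 had a weight of 0.0289 and vehicle replicate 4 of 0.497, against 1.09 to 5.43 for the other 8. In that fit 5 of the 19 passed, where 10.6% of all probe sets passed as lower and 10.9% as higher. Ifnar2 fell by 1.96 log2 (1440169_x_at, adjusted p = 0.0110) and by 0.74 log2 (1451462_a_at, adjusted p = 0.0165). Irf9 fell by 1.12 log2 (adjusted p = 0.0464), 1 of the 2 Ifngr2 probe sets fell by 0.41 log2 (1423558_at, adjusted p = 0.0420) while the other was at 0.11 log2 (1423557_at, adjusted p = 0.799), and Irf3 rose by 0.48 log2 by 1435271_at (adjusted p = 0.0370). Irf1, at -1.65 log2, just missed the threshold there (adjusted p = 0.0538). The weights nearly remove 1 array and were estimated from these same values, so these calls depend on that setting.

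**Figure D5:**
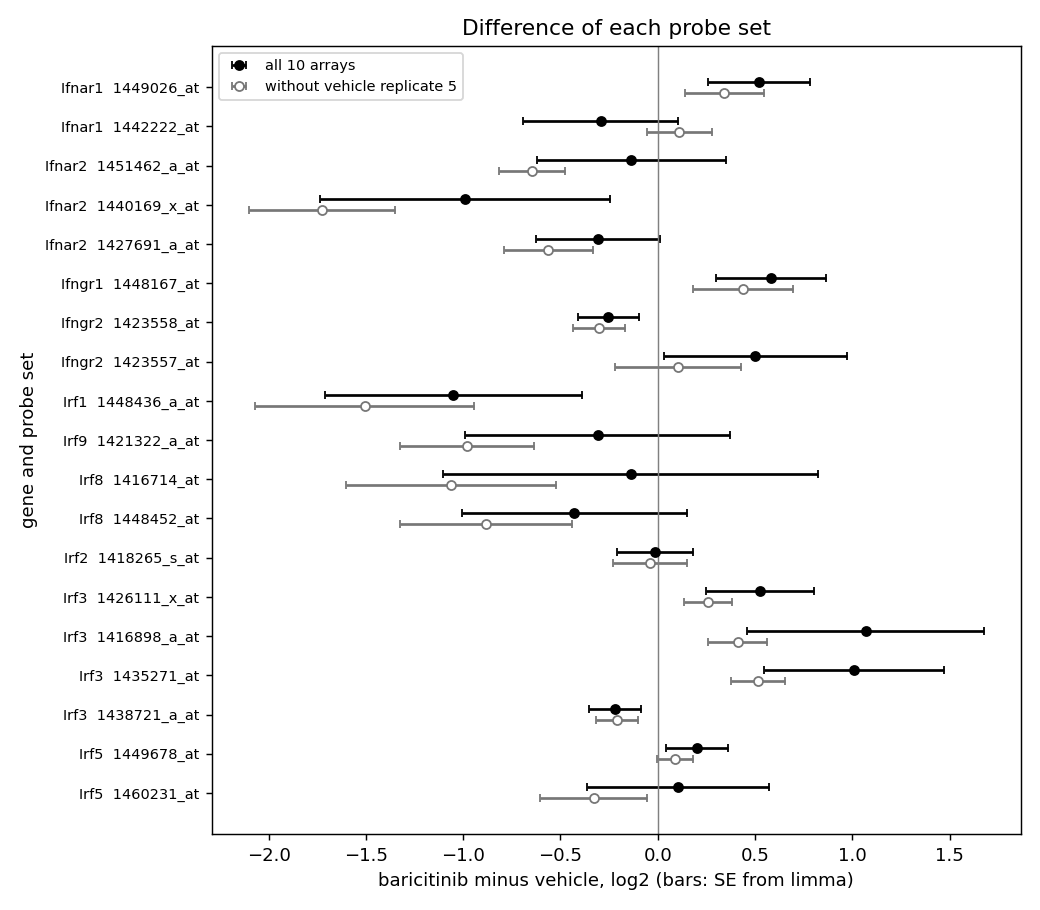
Baricitinib minus vehicle difference of each of the 19 probe sets on the log2 scale, with filled points for all 10 arrays and open points for the fit that left out vehicle replicate 5. Bars are the SE from limma. The probe sets of Ifnar2, Irf1, Irf9 and Irf8 all lie left of 0 in both comparisons, and 3 of the 4 probe sets of Irf3 lie right of 0 in both.

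The rest of the pathway was read through 7 lists of genes, each gene by its brightest probe set, and no gene of any list passed the test with all arrays or without vehicle replicate 5. With array quality weights, 2 ligands, 1 of the kinases and STAT factors, 3 of the other IRF genes, 1 negative regulator, 7 sensors and 5 targets passed, beside the 10.6% lower and 10.9% higher of all probe sets given above. Of 21 interferon ligands 10 were measured and all 10 were lower, with a median of -0.52 log2 and, without vehicle replicate 5, of -0.20 log2. All but Ifng and Ifnz were dim, with means of 2.57 to 5.02 log2, against a median of 6.08 log2 over all probe sets. No fall in type I ligand expression is therefore read from that count. Ifng, the ligand of the Ifngr1 and Ifngr2 receptor, was at 4.09, 3.84, 3.89, 4.42 and 8.63 log2 on baricitinib arrays 1 to 5, against 8.33, 8.69, 8.72, 9.26 and 3.81 log2 on vehicle arrays 1 to 5. Each array numbered 5 again lay near the other group, and the difference was -2.79 ± 1.21 log2 (SE, adjusted p = 0.327), or -3.78 log2 without vehicle replicate 5 (adjusted p = 0.0760) and -3.94 log2 with array quality weights (adjusted p = 0.0151). The type I ligand Ifna11 differed by -1.0 log2 over all arrays and by -0.05 log2 without vehicle replicate 5, which alone was at 7.11 log2 while the other 9 arrays were at 2.10 to 2.58 log2. Vehicle replicate 5 was also the highest array for Ifna1, Ifna5, Ifnab, Ifnb1 and Ifnz.

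Of the kinases and STAT factors that the receptors use, 4 of 5 listed genes were measured and all 4 were lower, with a median of -0.21 log2 and, without vehicle replicate 5, of -0.41 log2. Jak1, the kinase shared by both receptors and a target of the drug, differed by -0.37 log2 (adjusted p = 0.470), or -0.58 log2 without that array (adjusted p = 0.0936). Its other 2 probe sets differed the other way, by 0.62 and 0.52 log2, so no direction is given for Jak1. Stat2, the partner of Irf9, differed by -0.32 log2 (adjusted p = 0.840) or -1.21 log2 without vehicle replicate 5 (adjusted p = 0.157). The 2 chains of the type III interferon receptor, Ifnlr1 and Il10rb, differed by 0.73 log2 (adjusted p = 0.377) and 0.14 log2 (adjusted p = 0.846). Without vehicle replicate 5 they were at 0.34 log2 (adjusted p = 0.146) and -0.28 log2 (adjusted p = 0.376), so the direction of Il10rb rested on that array. These values are messenger RNA levels, and the kinase activity that the drug blocks was not measured by the arrays.

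The rest of the IRF family was mixed, with 2 of 5 measured genes of 6 listed lower and a median of 0.19 log2. Without vehicle replicate 5 there were 3 of 5 lower and the median was -0.01 log2. Irf4, a factor of lymphocytes and of some dendritic cells, was at 9.81, 9.56, 10.21, 10.41 and 10.39 log2 on baricitinib arrays 1 to 5, against 8.87, 9.18, 8.89, 9.71 and 7.21 log2 on vehicle arrays 1 to 5. Only baricitinib replicate 2 and vehicle replicate 4 kept the groups from separating, and the difference was 1.3 ± 0.42 log2 (adjusted p = 0.249), or 0.91 log2 without vehicle replicate 5 (adjusted p = 0.0800). Vehicle replicate 4 had a 3'/5' gap like that of the baricitinib arrays, and replicates 1 and 3, with wider gaps, were below replicates 2 and 4. The part of RNA quality in the Irf4 values was not tested. A dimmer Irf4 probe set differed by -0.13 log2, or 0.15 log2 without vehicle replicate 5. Irf7, the interferon-induced amplifier of type I interferon, differed by -0.85 log2 (adjusted p = 0.503), or by -1.45 log2 without that array (adjusted p = 0.118). The family thus differed in both directions, with the point estimates of Irf1, Irf7, Irf8 and Irf9 negative and those of the brightest Irf3 and Irf4 probe sets positive.

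Genes that feed the IRFs or are driven by them completed the lists. Of 14 measured sensors and kinases upstream of Irf3 and Irf5 (16 listed), 10 were lower, with a median of -0.33 log2. Without vehicle replicate 5 the median was -0.50 log2 and the groups did not overlap for 6 of the 14, all lower, where 4.11% of all probe sets were. The 14 are the brightest probe set of each gene, whereas the 4.11% includes dim probe sets. The RNA sensors Ifih1 and Ddx58 differed by -1.68 log2 (adjusted p = 0.221) and -1.20 log2 (adjusted p = 0.352), and without vehicle replicate 5 by -1.86 and -1.70 log2 (adjusted p = 0.0733 for both). On vehicle replicates 1 to 4, Ifih1 was at 11.44, 11.23, 11.81 and 10.66 log2, the order of the 3'/5' gap. Ddx58 and Irak1 had that order as well, whereas Tbk1, Myd88 and Tlr3, also without overlap, did not follow it fully. The part of RNA quality in the sensor values was not tested. Of 12 measured genes that IRF1 or the IRF9 complex is known to induce (13 listed), 10 were lower, with a median of -0.68 log2, or -1.08 log2 without vehicle replicate 5. Oasl2 and Ifit1, both antiviral genes, differed by -2.45 log2 (adjusted p = 0.247) and -2.11 log2 (adjusted p = 0.269), and without that array by -3.0 and -2.62 log2 (adjusted p = 0.0733 and adjusted p = 0.0760). Among 8 negative regulators 3 were lower, with a median of 0.19 log2, but 5 were lower without vehicle replicate 5, with a median of -0.20 log2. Socs3, a feedback inhibitor of JAK kinases, was lower without overlap by its brightest probe set, at 8.31 to 9.61 log2 on the baricitinib arrays and 9.75 to 10.93 log2 on the vehicle arrays, with a difference of -1.28 ± 0.29 log2 (adjusted p = 0.221), or -1.22 log2 without vehicle replicate 5 (adjusted p = 0.0768). Another probe set of Socs3 differed by -1.32 log2 and the dimmest by 0.43 log2, or by -0.34 log2 without that array. By both brighter probe sets the vehicle arrays followed the order of the 3'/5' gap. Vehicle replicate 4, with a gap like that of the baricitinib arrays, was at 9.75 log2 by the brightest. The highest baricitinib array was at 9.61 log2. The part of RNA quality in the Socs3 values was not tested. The phosphatase Ptpn6 differed by 1.06 log2 (adjusted p = 0.490), or by 0.18 log2 without vehicle replicate 5.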

How the data were processed

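Whole skin RNA, amplified and biotin-labelled by NuGen chemistry, was read on Affymetrix mouse arrays. The deposited values are log2 expression of each probe set, which the authors computed by RMA (submitters' processing notes and the study's methods; its version is not given in the sources used here), run on this experiment alone. The SD of the deposited values was 2.28 log2 on vehicle replicate 5 and 2.71 to 2.79 log2 on the others. The table held 45101 probe sets. The 64 controls were set aside and 45037 were tested, without a filter. In the platform annotation 34945 had 1 symbol, 932 several and 9160 none, and the last 2 kinds were never named.

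Groups came from the sample titles. The p-values weigh each difference against the spread between these mice, which, with 1 array per mouse, also holds differences in array and RNA quality. Baricitinib minus vehicle was fitted by lmFit and eBayes of limma 3.58.1 (R 4.3.3). Tests were two-sided, and p-values were adjusted by Benjamini-Hochberg across the 45037 probe sets with 0.05 as the threshold. The number of arrays limits the precision. All 10 arrays entered, because the vehicle array that the study removed is not identified in the labels, and each was also left out in turn. The named genes were every probe set of the 10 genes and, of each pathway list, the genes past the threshold or else the 2 with the largest absolute difference by the brightest probe set. The genes and lists were chosen with earlier results of these data known. The other alternatives left out dim probe sets, or used centring on array medians, quantile normalisation, quality weights per array, a block for the replicate number, eBayes with trend and robust settings, or 1 probe set per gene. The calculation was tested on simulated data. Promoter windows and gene starts are RefSeq, assembly GRCm38.p6.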

Additional observations from a re-analysis of the deposited data

Results flagged for a closer look

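The gap of the lowest or highest array to its nearest neighbour, divided by the range of its group, was taken for both groups of each of the 19 probe sets. It passed Dixon's critical value of 0.71 for 5 samples in 8 of 38 groups, where chance gives about 1 in 20. In 7 of the 8, vehicle replicate 5 was the lowest array and stood far below the others. The ratio was 0.920 for Irf9, 0.843 for Ifngr1, 0.828 for Ifnar2 (1451462_a_at) and 0.750 for Irf5 (1449678_at). For Irf3 it was 0.827 (1416898_a_at), 0.821 (1435271_at) and 0.745 (1426111_x_at). The remaining 1 was Irf5 by 1460231_at, where baricitinib replicate 5 stood above the rest of its group with a ratio of 0.777. The groups share arrays and several probe sets read the same gene, so these are not independent.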

How the results depend on the processing

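The count of member probe sets past the threshold was 0 in the comparison with all arrays and under every alternative except array quality weights, where it was 5 of 19, and where the count over all probe sets was 9676. Leaving out 1 array at a time gave 0 to 848 over all probe sets, with 848 without vehicle replicate 4, 12 without baricitinib replicate 5 and 0 without vehicle replicate 5, and 0 among the members each time. With 1 probe set per gene, 6 of 10 genes were lower, the smaller count following from fewer tests. The members' median difference stayed between -0.21 and 0.12 log2 when arrays were left out.

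Array quality weights turned the direction of Ifnar1 1442222_at (0.090), Irf2 (0.012), Irf5 1460231_at (-0.32) and Il10rb (-0.42). With arrays left out in turn, the differences that changed sign ranged from -0.48 to 0.11 log2 for Ifnar1 1442222_at, -0.65 to 0.053 for Ifnar2 1451462_a_at, -0.10 to 0.12 for Irf2, -0.33 to 0.35 for Irf5 1460231_at, -1.06 to 0.23 for Irf8 1416714_at, -0.28 to 0.30 for Il10rb and -1.21 to 0.042 for Stat2. The cause was not tested. In all, 14 of the members' values under 17 alternatives reversed, 5 newly passed and 293 kept direction and side. Centring on array medians gave 3800 lower and 3177 higher probe sets at an unadjusted p under 0.05, against 2532 and 4148 as deposited.

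Replicate numbers did not pair the mice, since deviations of same-numbered arrays correlated at -0.23 to 0.088. With the replicate block 0 probe sets passed, the members' median was -0.14 log2 and 5441 probe sets had an unadjusted p under 0.05, against 6680 without it. RMA values carry no depth, and dim probe sets such as Ifnar1 1442222_at cannot be set against background here.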
